A study of Mus musculus with 12 samples.

Results

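Ear skin of mice given topical imiquimod together with troglitazone was compared with ear skin of the UTX/Veh group, to describe the imiquimod response that remained under the drug. The 6 libraries were chosen by their sample titles, 3 titled IMQ/Troglitazone and 3 titled UTX/Veh, out of 12 libraries in the series. Each library is RNA sequencing of ear skin from C57BL/6 mice, 8 to 12 weeks old, labelled day 6. IMQ/Troglitazone mice were painted daily on the dorsal side of the ear with 20.8 mg of Aldara cream, which holds 5% imiquimod, and were injected into the peritoneum once daily from day 3 with 150 mg/kg of troglitazone; skin was taken 1 day after the last application. UTX/Veh mice had the DMSO vehicle. The labels do not spell out UTX, read here as untreated with imiquimod, and do not say whether these ears received any cream base. The 3 IMQ/Veh libraries, from imiquimod-painted ears of mice given DMSO, are used to place levels and, for some genes and lists, in a second comparison. The other 3 libraries, titled IMQ/GW3965, are from imiquimod-painted mice given 20 mg/kg of GW3965 from day 3. They are not compared here but are part of the fit behind the tests. The labels do not say that replicates are separate animals, so p-values measure the spread between these samples, which may be technical.

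Imiquimod is an agonist of Toll-like receptor 7, and repeated painting gives mouse skin a psoriasis-like inflammation in which IL-23 and IL-17 family cytokines, neutrophils and thickened, incompletely maturing epidermis are prominent. Troglitazone is a thiazolidinedione that activates PPARγ, a nuclear receptor that pairs with RXR on DNA and switches on genes of fatty acid uptake and lipid storage in adipocytes, sebocytes and macrophages. PPARγ agonists are also known to dampen inflammatory gene expression in macrophages and keratinocytes.

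Under troglitazone, imiquimod skin still differed widely from UTX/Veh skin. Of 17130 genes tested, 4546 were higher in IMQ/Troglitazone (26.5%) and 3222 lower (18.8%), or 45.3% in either direction, by edgeR's quasi-likelihood test at an adjusted p under 0.05. The libraries of the 2 groups did not overlap in 5600 genes higher in IMQ/Troglitazone (32.7%) and 5101 lower (29.8%). The median log2 difference over all tested genes was 0.01. With upper-quartile in place of TMM scaling this median shifted by -0.11 and the split became 3532 higher and 4371 lower, so that 44.7% of calls were higher in place of 58.5%. The lower calls numbered 2053 without IMQ/Troglitazone replicate 1 and 2049 without replicate 2. Deposited names carry a field L001 or L009, whose meaning is not stated. Within the L001 libraries, 2 each of IMQ/Troglitazone and UTX/Veh, 3577 genes were higher and 2120 lower, and L009 held 1 library of each. A stricter test, asking for more than a 2-fold change, called 535 genes higher and 132 lower. Levels below are counts per 1000000 reads of the TMM-scaled library size (CPM), and differences are log2 differences of IMQ/Troglitazone over UTX/Veh.

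Total expected counts of the 6 libraries ran from 20205187 to 24314204. IMQ/Troglitazone replicate 3 stood apart from its group, with a chi-square per degree of freedom of 30.6 and 36.7 against the other 2, which differed from each other by 13.7, and S100a8, Krt16 and Il1b were lowest in it. Defining genes of epidermis were present, with the suprabasal keratin Krt10 at 9546, 10910 and 8828 CPM in UTX/Veh and 22190, 20600 and 22010 CPM in IMQ/Troglitazone. Other tissues of the ear were less represented in imiquimod skin. Summed over 24 skeletal muscle genes the level was 18650 to 21310 CPM in UTX/Veh, 7884 to 11490 CPM in IMQ/Troglitazone and 2757 to 9754 CPM in IMQ/Veh; over 17 cartilage genes it was 2945 to 4229 CPM in UTX/Veh, 1408 to 2340 CPM in IMQ/Troglitazone and 521 to 1498 CPM in IMQ/Veh. Among muscle genes 15 fell (62.5%, median -1.15), and among cartilage genes 14 fell (82.4%, median -1.55), beside 18.8% of all genes tested. Muscle genes called lower numbered 4 without IMQ/Troglitazone replicates 1 or 2, 5 without UTX/Veh replicates 2 or 3, 6 without UTX/Veh replicate 1 and 9 without IMQ/Troglitazone replicate 3. Of muscle genes, the number called lower was 24 in a fit of the 2 groups alone. Cartilage genes called lower numbered 9 without UTX/Veh replicates 1 or 3 or IMQ/Troglitazone replicates 1 or 2. In bulk tissue, fewer cells of a type and less RNA per cell cannot be told apart. The part of this shift in the differences of other genes was not tested.

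The largest rises were in envelope, antimicrobial and acute-phase genes. Sprr2b, a small proline-rich envelope precursor, was at 0.0393, 0.0418 and 0.214 CPM in UTX/Veh and 147, 120.1 and 30.9 CPM in IMQ/Troglitazone, a log2 difference of 9.93 ± 1.15 (SE; adjusted p = 6.69e-05). Saa3, an acute-phase serum amyloid made by epithelium and macrophages, was at 0.197, 0 and 0.0854 CPM in UTX/Veh and 53.3, 21.6 and 10.6 CPM in IMQ/Troglitazone (log2 8.13 ± 1.19 SE, adjusted p = 0.000304). Stfa1 and Stfa3, stefin-type inhibitors of cysteine proteases abundant in neutrophils and inflamed epidermis, differed by 7.78 ± 0.77 (SE; adjusted p = 2.43e-05) and 7.92 ± 0.66 (SE; adjusted p = 7.68e-06). A further 3 genes on no inflammatory list ranked with them. Tcf23, a helix-loop-helix factor, was at 0.157, 0 and 0.0854 CPM in UTX/Veh and 32.8, 27.4 and 31.5 CPM in IMQ/Troglitazone (log2 8.44 ± 0.34 SE, adjusted p = 1.66e-07). Spink7, a Kazal-type serine protease inhibitor of squamous epithelium, was at 0.275, 0.0418 and 0 CPM in UTX/Veh and 38, 23.6 and 45.5 CPM in IMQ/Troglitazone (log2 8.27 ± 0.80 SE, adjusted p = 2.13e-05). Uox, the urate oxidase of purine breakdown, was at 0.236, 0 and 0.0854 CPM in UTX/Veh and 38.4, 35.9 and 2.26 CPM in IMQ/Troglitazone (log2 7.78 ± 1.64 SE, adjusted p = 0.0029), with 129.5 ± 38.1 CPM (mean ± SD, n = 3) in IMQ/Veh. The naming rule for the largest rises asked for groups without overlap, so the lack of overlap in these genes is not a result. Sprr2b had a log2 difference of 11.07 without UTX/Veh replicate 3. Saa3 had a log2 difference of 9.21, Stfa1 of 9.84, Tcf23 of 9.31, Spink7 of 10.37 and Uox of 9.05 without UTX/Veh replicate 1. Saa3 had a log2 difference of 7.31 without IMQ/Troglitazone replicate 1. Uox lost its call by limma-voom (adjusted p = 0.158).

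The largest falls were in a transglutaminase, serpins, a progestin receptor and a peptide hormone gene. Tgm7, a transglutaminase, was at 4.17, 4.43 and 3.72 CPM in UTX/Veh and 0, 0.0485 and 0.205 CPM in IMQ/Troglitazone (log2 -5.47 ± 0.59 SE, adjusted p = 4.41e-05). Serpinb6d, an intracellular serpin, was at 107, 84.5 and 114 CPM in UTX/Veh and 6.31, 1.89 and 2.42 CPM in IMQ/Troglitazone (log2 -4.84 ± 0.71 SE, adjusted p = 0.000307), and Serpina3b, a secreted serpin, at 101, 127 and 72.0 CPM in UTX/Veh and 5.33, 4.12 and 6.81 CPM in IMQ/Troglitazone (log2 -4.20 ± 0.54 SE, adjusted p = 0.000137). Paqr7, a membrane progestin receptor, fell from 299.8 ± 107 to 17.6 ± 4.31 CPM (mean ± SD, n = 3 each; log2 -4.09 ± 0.31 SE, adjusted p = 4.91e-06). Pyy, the gut hormone peptide YY, fell from 12.6 ± 10.3 to 0.828 ± 0.956 CPM (log2 -3.97 ± 1.0 SE, adjusted p = 0.00789). Serpinb1c, Add2, an adducin of the membrane skeleton, Pdzk1, a scaffold protein of membrane transporters, and Krtap3-2, a hair keratin-associated protein, fell by 4.12, 3.92, 3.89 and 3.73 on the log2 scale (adjusted p 3.74e-06 to 0.000117). Lack of overlap between the groups was likewise a condition for naming these falls. Tgm7 had a log2 difference of -7.17 and Pyy of -3.38 without IMQ/Troglitazone replicate 3. Serpinb6d had a log2 difference of -5.54 without IMQ/Troglitazone replicate 1. Pyy had a log2 difference of -3.06 without UTX/Veh replicate 1. Pyy had a log2 difference of -5.39 without IMQ/Troglitazone replicate 2.

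Cytokines of the IL-23, IL-17 and IL-36 axis remained above UTX/Veh levels. Of 30 tested genes of the axis, 19 rose (63.3%) and 2 fell (6.67%, among them Il20ra), beside 26.5% and 18.8% of all genes tested. Their median was 2.12, and from 13 to 21 rose with 1 library left out. Tlr7, the receptor of imiquimod, was at 3.58, 4.10 and 4.19 CPM in UTX/Veh and 8.89, 5.87 and 11.1 CPM in IMQ/Troglitazone (log2 1.12 ± 0.36 SE, adjusted p = 0.0247). Il23a and Il12b encode the subunits of IL-23, which sustains IL-17-producing lymphocytes. Il23a was at 0.275, 0.0418 and 0.0854 CPM in UTX/Veh and 0.720, 1.21 and 0.328 CPM in IMQ/Troglitazone (log2 2.40 ± 0.71 SE, adjusted p = 0.017), and Il12b at 0.0786, 0 and 0 CPM in UTX/Veh and 0.889, 2.04 and 0.287 CPM in IMQ/Troglitazone, where the summed counts were 31.9 times (95% counting interval 8.50 to 268) as high in IMQ/Troglitazone (log2 5.00 ± 1.69 SE, adjusted p = 0.0312). Of axis genes, the number called higher was 12 within the L001 libraries. No overlap between the groups was seen in the genes with a stated difference. Tlr7 lost its call without UTX/Veh replicates 1, 2 or 3 or IMQ/Troglitazone replicates 1 or 3 (adjusted p 0.0567 to 0.0817). Il23a lost its call without UTX/Veh replicates 2 or 3 or IMQ/Troglitazone replicate 2 (adjusted p 0.061 to 0.075). Il12b lost its call without UTX/Veh replicates 1, 2 or 3 or IMQ/Troglitazone replicates 1 or 2 (adjusted p 0.0548 to 0.108). Il23a had a log2 difference of 3.44 and Il12b of 7.50 without UTX/Veh replicate 1. Il12b had a log2 difference of 4.16 without IMQ/Troglitazone replicate 2. Il23a also lost its call within the L001 libraries (adjusted p = 0.202). Il12b also lost its call within the L001 libraries (adjusted p = 0.131).

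Among the effector cytokines, Il17a was listed at 0 in the 3 UTX/Veh libraries and at 0.169, 0.533 and 0 CPM in IMQ/Troglitazone, at least 4.55-fold higher by a floor of 3 counts over the group; its difference did not pass the test (adjusted p = 0.0583). Il17f, its close relative, was at 0.236, 0.0836 and 0 CPM in UTX/Veh and 1.35, 3.78 and 0.123 CPM in IMQ/Troglitazone (log2 3.91 ± 1.38 SE, adjusted p = 0.0371). Il22, which drives keratinocyte proliferation, was at 0.0393, 0 and 0 CPM in UTX/Veh and 0.931, 1.84 and 0.123 CPM in IMQ/Troglitazone, with summed counts 57.4 times (95% counting interval 9.93 to 2300) as high (log2 5.61 ± 1.93 SE, adjusted p = 0.0333). Il17c, which epithelium makes itself, had summed counts 36.0 times (95% counting interval 9.64 to 302) as high (log2 5.16 ± 1.23 SE, adjusted p = 0.0057). In IMQ/Veh skin the means were 1.90 ± 1.43 CPM for Il17a, 8.61 ± 5.73 for Il17f, 5.21 ± 4.22 for Il22 and 1.41 ± 1.08 for Il17c. These are low levels, at which a few counts set the value. Of the genes with a stated difference, the groups overlapped in Il17f. They were not apart in Il17a either, where IMQ/Troglitazone replicate 3 was at 0 like UTX/Veh. IMQ/Troglitazone replicate 3 was the lowest of its group in Il17f, Il22 and Il17c. Il17f and Il22 lost their calls without UTX/Veh replicates 1, 2 or 3 or IMQ/Troglitazone replicates 1 or 2 (adjusted p 0.0605 to 0.178). Il17f had a log2 difference of 5.17, Il22 of 7.35 and Il17c of 7.67 without UTX/Veh replicate 1. Il17f had a log2 difference of 2.69, Il22 of 4.77 and Il17c of 4.56 without IMQ/Troglitazone replicate 2. Il17f also lost its call within the L001 libraries (adjusted p = 0.31) and by limma-voom (adjusted p = 0.176). Il22 also lost its call within the L001 libraries (adjusted p = 0.171) and by limma-voom (adjusted p = 0.073). Il17a passed the test with all genes of at least 1 count kept (adjusted p = 0.0285), by DESeq2 (adjusted p = 0.00513) and without IMQ/Troglitazone replicate 3 (adjusted p = 0.0203).

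Keratinocyte and myeloid cytokines were measured more deeply. Il1f6, the gene of IL-36α, which amplifies the IL-17 response in epidermis, was at 4.44, 6.23 and 4.44 CPM in UTX/Veh and 167, 142 and 143 CPM in IMQ/Troglitazone (log2 4.90 ± 0.34 SE, adjusted p = 2.94e-06), with 217 ± 74.8 CPM in IMQ/Veh. Ccl20, the chemokine that draws CCR6-bearing IL-17 producers, was at 0.708, 0.543 and 0.385 CPM in UTX/Veh and 15.3, 35.8 and 20.4 CPM in IMQ/Troglitazone (log2 5.42 ± 0.80 SE, adjusted p = 0.000316), with 10.3, 36.0 and 5.88 CPM in the IMQ/Veh libraries. Il1b, the inflammasome-processed IL-1 of myeloid cells, was at 2.08, 0.334 and 0.684 CPM in UTX/Veh and 18.2, 13.1 and 1.44 CPM in IMQ/Troglitazone (log2 3.37 ± 0.80 SE, adjusted p = 0.00549). In Il1b, IMQ/Troglitazone replicate 3 lay below UTX/Veh replicate 1. In IMQ/Veh skin Il1b was at 114, 107 and 138 CPM, and the difference of IMQ/Troglitazone from it was -3.46 ± 0.66 (SE; adjusted p = 0.0136). Il20ra, a receptor chain for IL-19, IL-20 and IL-24, fell and was at 28.1, 28.8 and 23.3 CPM in UTX/Veh and 10.9, 7.57 and 14.2 CPM in IMQ/Troglitazone (log2 -1.29 ± 0.27 SE, adjusted p = 0.00279). Ranges of the 2 groups overlapped in Il1b and were apart in the other genes with a stated difference. Il1b had a log2 difference of 4.41 without UTX/Veh replicate 1. Il1b had a log2 difference of 2.78 without IMQ/Troglitazone replicate 1. Il1b lost its call within the L001 libraries (adjusted p = 0.0727) and by limma-voom (adjusted p = 0.0556). Il1b lost its call against IMQ/Veh without IMQ/Veh replicate 1 (adjusted p = 0.0512). Il1b had a log2 difference against IMQ/Veh of -4.06 without IMQ/Troglitazone replicate 1.

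Alarmin and antimicrobial genes rose together: of 19 tested, 18 rose (94.7%) and 1 fell (5.26%, Wfdc21), beside 26.5% and 18.8% of all genes tested. Their median was 4.16. S100a8 (chr3:90668978-90670035, GRCm38) and S100a9 encode calprotectin, abundant in neutrophils and in stressed keratinocytes. S100a8 was at 6.17, 1.09 and 2.95 CPM in UTX/Veh and 608, 474 and 126 CPM in IMQ/Troglitazone (log2 6.88 ± 0.93 SE, adjusted p = 0.000192). S100a9 was at 10.8, 1.42 and 2.73 CPM in UTX/Veh and 1291, 1061 and 222 CPM in IMQ/Troglitazone (log2 7.42 ± 1.06 SE, adjusted p = 0.000263). IMQ/Veh skin had 2939 ± 890.4 CPM of S100a8 and 5417 ± 1479 CPM of S100a9. For S100a8 the difference from IMQ/Veh was -2.87 ± 0.75 (SE, adjusted p = 0.0381), while S100a9 did not pass the test against IMQ/Veh. Lcn2, the iron-sequestering lipocalin, was at 2.95, 2.63 and 2.26 CPM in UTX/Veh and 64.3, 87.7 and 29.9 CPM in IMQ/Troglitazone (log2 4.53 ± 0.61 SE, adjusted p = 0.000186). Slpi, an inhibitor of neutrophil elastase, was at 2.08, 1.17 and 1.20 CPM in UTX/Veh and 78.8, 101 and 70.8 CPM in IMQ/Troglitazone (log2 5.80 ± 0.37 SE, adjusted p = 1.71e-06). The β-defensin Defb3 was listed at 0 in UTX/Veh and at 5.80, 7.95 and 2.13 CPM in IMQ/Troglitazone, at least 107-fold higher (log2 9.84 ± 1.64 SE, adjusted p = 0.0012), and Defb4 had summed counts 236 times (95% counting interval 42.0 to 9350) as high (log2 7.61 ± 0.91 SE, adjusted p = 8.25e-05). Wfdc21, a whey-acidic-protein gene, went from 50.5, 51.7 and 40.2 to 9.90, 12.1 and 15.1 CPM (log2 -1.94 ± 0.25 SE, adjusted p = 0.000136). Libraries of the 2 groups did not overlap in the genes with a stated difference. IMQ/Troglitazone replicate 3 was the lowest of its group in S100a8, S100a9, Lcn2, Slpi, Defb3 and Defb4. S100a8 had a log2 difference of 7.64, S100a9 of 8.69 and Defb4 of 9.35 without UTX/Veh replicate 1. S100a8 lost its call against IMQ/Veh without IMQ/Veh replicates 1 or 2 or IMQ/Troglitazone replicates 1, 2 or 3 (adjusted p 0.0663 to 0.127).

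**Figure D1:**
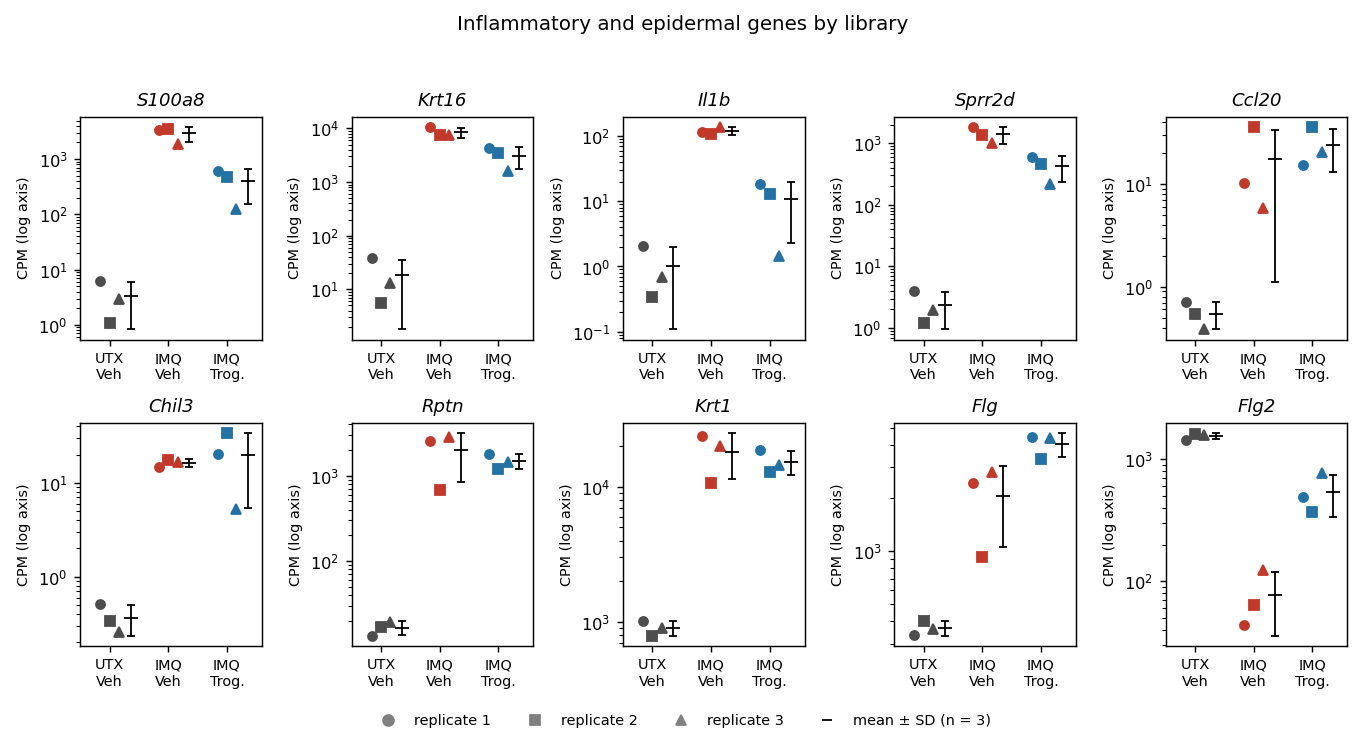
Scaled CPM of 10 inflammatory and epidermal genes on log axes; each symbol is 1 library (circle, square and triangle for replicates 1 to 3) and the black mark and bar are the mean ± SD of 3 libraries. S100a8 and Krt16 of IMQ/Troglitazone lie between the UTX/Veh and IMQ/Veh libraries, with replicate 3 lowest (S100a8 at 126 CPM); Rptn and Krt1 of IMQ/Troglitazone lie within the IMQ/Veh range, and Flg2 lies below UTX/Veh and above IMQ/Veh.

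Neutrophil markers and chemokines were also higher: of 21 tested, 18 rose (85.7%) and 1 fell (4.76%, Mmp9), beside 26.5% and 18.8% of all genes tested. Their median was 3.43, and from 16 to 19 rose with 1 library left out. The granule genes Mpo and Elane and the surface marker Ly6g were too low to test; Ly6g had 1, 0 and 0 counts in the UTX/Veh libraries and 1, 1 and 0 in IMQ/Troglitazone. Fpr1 and Fpr2 encode receptors for formylated bacterial peptides. Fpr1 was listed at 0 in UTX/Veh and at 2.41, 1.55 and 0.533 CPM in IMQ/Troglitazone, at least 31.0-fold higher (log2 8.03 ± 1.27 SE, adjusted p = 0.00093). For a gene at 0 in a group, as for Defb3 above, the fitted log2 value depends on the prior count, and with such genes at their bounds the list medians did not move. Fpr2 had summed counts 59.8 times (95% counting interval 20.2 to 293) as high (log2 5.94 ± 0.70 SE, adjusted p = 7.47e-05). Cxcl3 and Cxcl5 are CXCR2 ligands that recruit neutrophils, and their summed counts were 39.6 times (95% counting interval 10.6 to 332) and 70.1 times (95% counting interval 12.2 to 2810) as high (log2 5.26 ± 1.18 SE, adjusted p = 0.00412, and log2 5.89 ± 1.66 SE, adjusted p = 0.0136). IMQ/Veh skin had 14.0 ± 4.24 CPM of Cxcl3 and 13.5 ± 7.29 CPM of Cxcl5; for Cxcl3 the difference from IMQ/Veh was -3.46 ± 0.62 (SE; adjusted p = 0.0126). Mmp9, the gelatinase B of neutrophils and keratinocytes, was at 12.8, 11.7 and 14.6 CPM in UTX/Veh and 7.15, 5.77 and 5.29 CPM in IMQ/Troglitazone (log2 -1.10 ± 0.32 SE, adjusted p = 0.0158). Where a difference is stated, the ranges of the 2 groups were apart. Cxcl5 lost its call without IMQ/Troglitazone replicate 2 (adjusted p = 0.0505). Mmp9 lost its call without UTX/Veh replicate 3 or IMQ/Troglitazone replicates 2 or 3 (adjusted p 0.0504 to 0.0528). Fpr2 had a log2 difference of 6.79 without UTX/Veh replicate 3. Cxcl3 had a log2 difference of 7.77 without UTX/Veh replicate 1. Cxcl3 had a log2 difference of 4.17 without IMQ/Troglitazone replicate 1. Cxcl5 had a log2 difference of 7.64 without UTX/Veh replicate 2. Cxcl5 had a log2 difference of 5.17 without IMQ/Troglitazone replicate 2. Cxcl5 also lost its call within the L001 libraries (adjusted p = 0.0583) and by limma-voom (adjusted p = 0.0747). Cxcl3 had a log2 difference against IMQ/Veh of -4.55 without IMQ/Troglitazone replicate 1.

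Monocyte and macrophage genes were mostly higher: of 28 tested, 22 rose (78.6%, beside 26.5% of all genes tested), with a median of 1.53. Summed over the list, the level was 425 to 577 CPM in UTX/Veh, 1189 to 1476 CPM in IMQ/Troglitazone and 793 to 1787 CPM in IMQ/Veh. The complement gene C1qb was at 30.6, 30.0 and 43.2 CPM in UTX/Veh and 151, 112 and 117 CPM in IMQ/Troglitazone (log2 1.87 ± 0.30 SE, adjusted p = 0.000584), and Adgre1, which encodes F4/80, at 12.2, 12.2 and 19.6 CPM in UTX/Veh and 100, 84.4 and 80.8 CPM in IMQ/Troglitazone (log2 2.59 ± 0.42 SE, adjusted p = 0.000559). Fcgr4, an activating IgG receptor, was at 0, 0.334 and 0.0854 CPM in UTX/Veh and 5.25, 2.86 and 1.60 CPM in IMQ/Troglitazone (log2 4.50 ± 0.82 SE, adjusted p = 0.00123). Il6 had summed counts 25.8 times (95% counting interval 8.54 to 128) as high (log2 4.79 ± 1.61 SE, adjusted p = 0.0306). Ccl3, an inflammatory chemokine, was at 0.157, 0.209 and 0.171 CPM in UTX/Veh and 2.41, 0.970 and 0.492 CPM in IMQ/Troglitazone (log2 2.82 ± 0.66 SE, adjusted p = 0.00537), and Cd300lf, an inhibitory myeloid receptor, at 0.197, 0.125 and 0.128 CPM in UTX/Veh and 2.46, 2.28 and 1.07 CPM in IMQ/Troglitazone (log2 3.62 ± 0.56 SE, adjusted p = 0.000451). Against IMQ/Veh, the difference of Cd300lf was -2.69 ± 0.39 (SE; adjusted p = 0.00724). Ccr2, the receptor by which inflammatory monocytes leave the blood, did not pass the test against UTX/Veh (13.3, 9.20 and 20.2 CPM in UTX/Veh and 14.2, 21.4 and 13.8 CPM in IMQ/Troglitazone; log2 0.21 ± 0.28 SE, adjusted p = 0.565), with 46.4, 37.4 and 63.6 CPM in the IMQ/Veh libraries. Of the genes with a stated difference, the groups overlapped in Il6 and Ccr2. IMQ/Troglitazone replicate 3 was the lowest of its group in Adgre1, Fcgr4, Il6, Ccl3 and Cd300lf. Il6 lost its call without UTX/Veh replicates 1, 2 or 3 or IMQ/Troglitazone replicates 1 or 2 (adjusted p 0.0552 to 0.128). Fcgr4 had a log2 difference of 3.90 and Il6 of 5.59 without UTX/Veh replicate 1. Fcgr4 had a log2 difference of 6.11 without UTX/Veh replicate 2. Il6 had a log2 difference of 3.67 without IMQ/Troglitazone replicate 2. Il6 had a log2 difference of 5.38 without IMQ/Troglitazone replicate 3. Ccl3 had a log2 difference of 1.99 without IMQ/Troglitazone replicate 1. Il6 also lost its call within the L001 libraries (adjusted p = 0.103) and by limma-voom (adjusted p = 0.21).

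Genes of alternatively activated and resident macrophages split. Of 19 tested, 10 rose and 3 fell (Retnla, Mgl2 and Cd209a), with a median of 0.73. The shares were 52.6% and 15.8%, beside 26.5% and 18.8% of all genes tested. Chil3, the chitinase-like Ym1, was at 0.511, 0.334 and 0.256 CPM in UTX/Veh and 20.1, 33.6 and 5.25 CPM in IMQ/Troglitazone (log2 5.70 ± 0.76 SE, adjusted p = 0.000166). Arg1, the arginase that competes for arginine with nitric oxide synthase, was at 3.77, 3.64 and 2.39 CPM in UTX/Veh and 30.6, 10.5 and 18.1 CPM in IMQ/Troglitazone (log2 2.59 ± 0.59 SE, adjusted p = 0.00434). The scavenger receptors Mrc1 and Cd163 and the lectin Cd209f differed by 1.46 ± 0.28 (SE; adjusted p = 0.00182), 1.37 ± 0.34 (SE; adjusted p = 0.00688) and 2.24 ± 0.43 (SE; adjusted p = 0.00181). Lyve1, shared by lymphatic endothelium and perivascular macrophages, was at 17.9, 19.4 and 19.1 CPM in UTX/Veh and 38.8, 35.6 and 44.4 CPM in IMQ/Troglitazone (log2 1.08 ± 0.21 SE, adjusted p = 0.00193). Retnla, the resistin-like molecule Fizz1 and a classic IL-4 target, moved the opposite way, from 7.31, 1.76 and 8.67 CPM to 0.466, 0.436 and 0.287 CPM (log2 -3.89 ± 0.77 SE, adjusted p = 0.00202). Mgl2, a lectin of dermal dendritic cells and macrophages, and Cd209a, a lectin of monocyte-derived dendritic cells, differed by -1.84 ± 0.28 (SE; adjusted p = 0.000369) and -1.97 ± 0.39 (SE; adjusted p = 0.00199). The groups did not overlap in any gene whose difference is given here. Chil3 had a log2 difference of 5.08 without IMQ/Troglitazone replicate 2.

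Of the type 2 axis, 19 genes could be tested. In this list 7 rose and 3 fell (Il17rb, Gata3 and Ccl24), and the median was 0.37. The shares were 36.8% and 15.8%, beside 26.5% and 18.8% of all genes tested. In a fit of the 2 groups alone, 5 fell. The cytokines Il4, Il5, Il9, Il13, Il25 and Il31 were below the level needed for a test. Il4 had 3, 0 and 1 counts in the UTX/Veh libraries and 0, 2 and 1 in IMQ/Troglitazone, and Il13 had 2, 2 and 4 and 2, 7 and 1. Il4ra, the receptor chain common to IL-4 and IL-13, was at 35.3, 29.9 and 40.4 CPM in UTX/Veh and 97.5, 115 and 61.9 CPM in IMQ/Troglitazone (log2 1.37 ± 0.30 SE, adjusted p = 0.00333). Tslp, the epithelial cytokine that primes type 2 responses, was at 3.15, 2.17 and 1.92 CPM in UTX/Veh and 5.88, 5.14 and 6.73 CPM in IMQ/Troglitazone (log2 1.29 ± 0.23 SE, adjusted p = 0.0011). Areg, an epidermal growth factor receptor ligand made by type 2 innate cells and by keratinocytes, was at 0.472, 0.460 and 0.385 CPM in UTX/Veh and 5.59, 6.98 and 2.26 CPM in IMQ/Troglitazone (log2 3.47 ± 0.47 SE, adjusted p = 0.000184). Gata3, which type 2 lymphocytes and keratinocytes both express, was at 167, 166 and 163 CPM in UTX/Veh and 88.9, 87.7 and 94.4 CPM in IMQ/Troglitazone (log2 -0.87 ± 0.12 SE, adjusted p = 0.000173). Ccl24, an eosinophil attractant, was at 2.52, 2.13 and 2.99 CPM in UTX/Veh and 0.339, 0.727 and 0.533 CPM in IMQ/Troglitazone (log2 -2.25 ± 0.48 SE, adjusted p = 0.00312). In no gene with a stated difference did the groups overlap.

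Dendritic cell and T cell genes were lower than in UTX/Veh skin. Of 21 dendritic and Langerhans cell genes, 3 rose (Epcam, Cd80 and Fscn1) and 11 fell (median -0.76). That was 14.3% and 52.4%, beside 26.5% and 18.8% of all genes tested. H2-Aa, an MHC class II chain, was at 223, 165 and 275 CPM in UTX/Veh and 103, 90.3 and 92.9 CPM in IMQ/Troglitazone (log2 -1.21 ± 0.21 SE, adjusted p = 0.000837). Cd207, which encodes langerin, was at 16.5, 14.0 and 14.9 CPM in UTX/Veh and 10.1, 8.39 and 8.25 CPM in IMQ/Troglitazone (log2 -0.76 ± 0.14 SE, adjusted p = 0.00128). Flt3, the growth factor receptor of dendritic cells, was at 3.58, 2.09 and 4.91 CPM in UTX/Veh and 1.35, 1.36 and 1.40 CPM in IMQ/Troglitazone (log2 -1.36 ± 0.36 SE, adjusted p = 0.0101). Fscn1, the actin bundler of mature dendritic cells, went up, from 14.8, 11.6 and 14.0 to 57.4, 56.6 and 28.3 CPM (log2 1.82 ± 0.26 SE, adjusted p = 0.000273). Dendritic and Langerhans cell genes called lower numbered 6 without UTX/Veh replicate 3 and 7 without UTX/Veh replicate 1 or IMQ/Troglitazone replicate 1. Of dendritic and Langerhans cell genes, the number called lower was 6 within the L001 libraries. Of 26 T cell and innate-like lymphocyte genes, 1 rose (3.85%, Cd5) and 15 fell (57.7%, median -0.97). Trdc, the constant region of the δ chain that epidermal γδ T cells carry, was at 16.7, 14.3 and 4.36 CPM in UTX/Veh and 3.17, 4.95 and 5.09 CPM in IMQ/Troglitazone (log2 -1.42 ± 0.40 SE, adjusted p = 0.0136). The CD3 complex genes Cd3g, Cd3e and Cd247 differed by -1.41 ± 0.21 (SE; adjusted p = 0.000306), -1.33 ± 0.20 (SE; adjusted p = 0.000321) and -1.42 ± 0.17 (SE; adjusted p = 9.03e-05). The falls in muscle and cartilage genes given above moved in the same libraries; their part in these differences was not tested. Ranges of the 2 groups overlapped in Trdc and were apart in the other genes with a stated difference. Flt3 lost its call without UTX/Veh replicate 3 (adjusted p = 0.0505). Trdc lost its call without UTX/Veh replicate 1 or IMQ/Troglitazone replicate 1 (adjusted p 0.0613 to 0.0661). Flt3 also lost its call within the L001 libraries (adjusted p = 0.0573).

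Stress keratins and cornified envelope precursors had the highest median of the lists, 6.28. Of 32 listed, 31 could be tested and all 31 rose, as they did without IMQ/Troglitazone replicate 3; Sprr3 was too low. Krt16 (chr11:100246091-100248902), the keratin of hyperproliferative epidermis, was at 37.9, 5.48 and 12.9 CPM in UTX/Veh and 4262, 3450 and 1593 CPM in IMQ/Troglitazone (log2 7.37 ± 0.71 SE, adjusted p = 2.13e-05). Krt6a, its partner, was at 67.3, 44.9 and 35.5 CPM in UTX/Veh and 3221, 2947 and 1092 CPM in IMQ/Troglitazone (log2 5.62 ± 0.43 SE, adjusted p = 4.53e-06). Sprr2d was at 4.01, 1.21 and 1.97 CPM in UTX/Veh and 592, 462 and 216 CPM in IMQ/Troglitazone (log2 7.45 ± 0.61 SE, adjusted p = 7.48e-06), and Sprr2h at 4.36, 1.09 and 4.44 CPM in UTX/Veh and 408, 356 and 231 CPM in IMQ/Troglitazone (log2 6.65 ± 0.46 SE, adjusted p = 2.9e-06). The late envelope gene Lce3b of the repair-type cluster was at 0.354, 0 and 0.0854 CPM in UTX/Veh and 45.6, 38.3 and 10.6 CPM in IMQ/Troglitazone (log2 7.65 ± 0.94 SE, adjusted p = 9.67e-05). IMQ/Veh skin had 8576 ± 1822 CPM of Krt16, 7709 ± 1356 of Krt6a and 1404 ± 415 of Sprr2d. Against IMQ/Veh, Krt16 did not pass the test. Krt6a was called lower there, a call lost without IMQ/Veh replicate 1 (adjusted p = 0.0779). Members of the Sprr2, Lce3, Krt6 and Stfa families are near copies of one another, so the split of reads among them by RSEM is uncertain. No overlap between the groups was seen in the genes with a stated difference. IMQ/Troglitazone replicate 3 was the lowest of its group in Krt16, Krt6a, Sprr2d, Sprr2h and Lce3b. Krt16 had a log2 difference of 8.40, Sprr2d of 8.06 and Lce3b of 9.36 without UTX/Veh replicate 1.

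Because the Sprr2 genes stand side by side on chromosome 3 and rose together, the stretches upstream of 4 of them are shown. Each is the 250 bases before the annotated start from RefSeq (GRCm38.p6, plus strand), 5′ to 3′: Sprr2d at chr3:92338890-92339139, Sprr2e at chr3:92351893-92352142, Sprr2f at chr3:92364937-92365186 and Sprr2h at chr3:92385435-92385684. Capitals mark TGANTCA, the AP-1 motif bound by Fos and Jun dimers, searched on both strands.
Sprr2d: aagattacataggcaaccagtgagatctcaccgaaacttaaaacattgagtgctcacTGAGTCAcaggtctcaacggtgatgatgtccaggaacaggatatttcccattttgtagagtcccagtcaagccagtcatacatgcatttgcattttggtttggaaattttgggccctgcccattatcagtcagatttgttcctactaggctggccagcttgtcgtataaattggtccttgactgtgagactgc
Sprr2e: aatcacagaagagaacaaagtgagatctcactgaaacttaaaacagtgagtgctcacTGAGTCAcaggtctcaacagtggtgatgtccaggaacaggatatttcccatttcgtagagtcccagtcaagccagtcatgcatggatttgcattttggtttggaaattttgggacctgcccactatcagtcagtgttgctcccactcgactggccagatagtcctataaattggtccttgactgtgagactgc
Sprr2f: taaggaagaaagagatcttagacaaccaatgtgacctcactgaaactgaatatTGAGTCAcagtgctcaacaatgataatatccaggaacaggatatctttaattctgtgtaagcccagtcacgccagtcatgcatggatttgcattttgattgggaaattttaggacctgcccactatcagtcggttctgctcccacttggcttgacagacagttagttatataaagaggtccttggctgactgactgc
Sprr2h: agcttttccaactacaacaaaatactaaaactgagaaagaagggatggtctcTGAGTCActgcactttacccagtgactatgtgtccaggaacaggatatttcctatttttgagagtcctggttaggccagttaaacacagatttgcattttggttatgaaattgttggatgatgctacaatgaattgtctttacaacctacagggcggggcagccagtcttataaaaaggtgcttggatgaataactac
Each of the 4 held 1 match, while those of Sprr2a1, Sprr2a2 and Sprr2a3 in the same cluster held 0. The stretches of Sprr2a1 and Sprr2a2 had the same letters and that of Sprr2a3 overlapped them in sequence, so they are not separate cases. The Sprr2a2 stretch lay 34727 bases from the GENCODE start of that gene, and the Sprr2a3 stretch 113. Of the 27 list members found among the promoters, 10 held the motif (37.0%), against 1848 of 27025 promoters of the same length (6.84%). Sprr genes, many of them near copies, gave 9 of the 10. A match describes the letters and is no evidence of binding. Of the AP-1 genes themselves, Fosl1, a Fos family member of squamous epithelium, was at 1.97, 1.3 and 1.07 CPM in UTX/Veh and 8.21, 19.4 and 7.43 CPM in IMQ/Troglitazone (log2 3.00 ± 0.49 SE, adjusted p = 0.000611). Fosb, an immediate early member, was at 98.0, 73.2 and 97.0 CPM in UTX/Veh and 13.2, 14.5 and 13.4 CPM in IMQ/Troglitazone (log2 -2.71 ± 0.57 SE, adjusted p = 0.00304). The groups did not overlap in either gene.

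Late differentiation genes were also mostly higher. Of 38 tested, 27 rose and 3 fell (Krt77, Flg2 and Lce1m), with a median of 1.18. That was 71.1% and 7.89%, beside 26.5% and 18.8% of all genes tested. Their summed level was 31150 to 37330 CPM in UTX/Veh, 50860 to 62470 CPM in IMQ/Veh and 72840 to 83570 CPM in IMQ/Troglitazone. Rptn, the repetin of the cornified envelope, was at 13.4, 16.7 and 19.6 CPM in UTX/Veh and 1807, 1202 and 1469 CPM in IMQ/Troglitazone (log2 6.50 ± 0.55 SE, adjusted p = 8.19e-06). Krt1, the suprabasal partner of Krt10, was at 1016, 797 and 905 CPM in UTX/Veh and 18730, 12730 and 14500 CPM in IMQ/Troglitazone (log2 4.08 ± 0.33 SE, adjusted p = 7.39e-06), against 18100 ± 6735 CPM in IMQ/Veh. Flg, the profilaggrin gene, was at 334, 403 and 365 CPM in UTX/Veh and 4421, 3313 and 4366 CPM in IMQ/Troglitazone (log2 3.46 ± 0.34 SE, adjusted p = 2.13e-05), against 2424, 926 and 2797 CPM in the IMQ/Veh libraries. Casp14, the protease that breaks filaggrin down, differed by 3.77 ± 0.39 (SE; adjusted p = 3.05e-05). The 3 that fell included Krt77, a suprabasal keratin, at 862, 674 and 814 CPM in UTX/Veh and 122, 79.4 and 85.2 CPM in IMQ/Troglitazone (log2 -3.04 ± 0.71 SE, adjusted p = 0.00527), and Lce1m (log2 -1.49 ± 0.30 SE, adjusted p = 0.00251). Flg2 (chr3:93197278-93221391), a filaggrin relative of the late granular layer, was at 1444, 1625 and 1578 CPM in UTX/Veh and 487, 372 and 769 CPM in IMQ/Troglitazone (log2 -1.51 ± 0.36 SE, adjusted p = 0.00528). In IMQ/Veh skin Flg2 was lower still, at 44.1, 64.3 and 124 CPM, a difference of 2.81 ± 0.37 (SE; adjusted p = 0.00632) that held with each library left out in turn. Lor, which encodes loricrin, did not pass the test (1958, 2423 and 2062 CPM in UTX/Veh and 2746, 1929 and 2955 CPM in IMQ/Troglitazone; log2 0.24 ± 0.20 SE, adjusted p = 0.329). Of the genes with a stated difference, the groups overlapped in Lor.

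Barrier lipid genes rose with the envelope genes. Of 19 genes of acylceramide synthesis, 17 rose (89.5%, beside 26.5% of all genes tested), with a median of 1.13. Aloxe3 and Slc27a4 did not pass the test. Degs2, the ceramide hydroxylase, was at 6.60, 6.81 and 6.02 CPM in UTX/Veh and 66.3, 46.6 and 60.6 CPM in IMQ/Troglitazone (log2 3.16 ± 0.21 SE, adjusted p = 2.1e-06). Cers3, the synthase of ultra-long-chain ceramides, was at 47.6, 57.4 and 51.2 CPM in UTX/Veh and 214, 185 and 206 CPM in IMQ/Troglitazone (log2 1.96 ± 0.14 SE, adjusted p = 2.94e-06). Sdr9c7 and Alox12b, which oxidise the linoleate of acylceramides, differed by 1.57 ± 0.15 (SE; adjusted p = 1.83e-05) and 1.41 ± 0.14 (SE; adjusted p = 2.05e-05). Of 25 cholesterol synthesis genes, 20 rose (80.0%) and 1 fell (4.0%), with a median of 0.83. Sqle, the squalene epoxidase, was at 121, 151 and 115 CPM in UTX/Veh and 338, 316 and 291 CPM in IMQ/Troglitazone (log2 1.29 ± 0.14 SE, adjusted p = 3.83e-05), and Idi1 and Ebp differed by 1.32 ± 0.16 (SE; adjusted p = 7.87e-05) and 1.20 ± 0.12 (SE; adjusted p = 3.13e-05). Libraries of the 2 groups did not overlap in the genes with a stated difference.

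Basal keratinocyte genes split. Of 12, 4 rose (Krt5, Krt14, Itga6 and Itga3) and 4 fell (Krt15, Col17a1, Lamb3 and Dst). The share was 33.3% each way, beside 26.5% higher and 18.8% lower of all genes tested. Krt14 was at 3358, 3724 and 3381 CPM in UTX/Veh and 11210, 9627 and 7135 CPM in IMQ/Troglitazone (log2 1.42 ± 0.19 SE, adjusted p = 0.000191). Krt15, a keratin of resting basal cells and hair follicle stem cells, was at 897, 1015 and 732 CPM in UTX/Veh and 159, 119 and 244 CPM in IMQ/Troglitazone (log2 -2.34 ± 0.28 SE, adjusted p = 7.29e-05). Col17a1 and Dst, parts of the hemidesmosome that anchors basal cells, differed by -0.76 ± 0.12 (SE; adjusted p = 0.000567) and -1.08 ± 0.18 (SE; adjusted p = 0.000853). Where a difference is stated, the ranges of the 2 groups were apart.

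All 30 tested cell cycle genes rose, with a median of 2.07, and 30 rose with each library left out in turn. Plk1, the mitotic polo-like kinase, was at 4.01, 5.22 and 3.67 CPM in UTX/Veh and 32.7, 32.1 and 24.3 CPM in IMQ/Troglitazone (log2 2.79 ± 0.21 SE, adjusted p = 4.47e-06). Ccnb1, cyclin B1, was at 9.08, 10.7 and 7.69 CPM in UTX/Veh and 51.0, 56.2 and 47.7 CPM in IMQ/Troglitazone (log2 2.50 ± 0.18 SE, adjusted p = 3.89e-06). Cdc20, an activator of the anaphase-promoting complex, and Aurka, the centrosomal Aurora kinase, differed by 2.40 ± 0.20 (SE; adjusted p = 7.68e-06) and 2.35 ± 0.24 (SE; adjusted p = 2.8e-05). Mki67, the proliferation marker Ki-67, was at 82.0, 85.8 and 65.2 CPM in UTX/Veh and 290.5, 322 and 288 CPM in IMQ/Troglitazone (log2 1.95 ± 0.17 SE, adjusted p = 1.2e-05), against 372 ± 85.5 CPM in IMQ/Veh. Top2a, topoisomerase II of replicating chromosomes, was at 43.4, 46.2 and 36.2 CPM in UTX/Veh and 164, 199.7 and 158 CPM in IMQ/Troglitazone (log2 2.05 ± 0.15 SE, adjusted p = 4.11e-06). The smallest rises of the list were in Mcm6, a replication licensing helicase subunit, and Pcna, the sliding clamp (log2 0.69 and 0.70). The groups did not overlap in any gene whose difference is given here.

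Genes of mitosis share promoter elements, shown here for 3 of them as the 250 bases before the annotated start from RefSeq (GRCm38.p6, minus strand), 5′ to 3′: Mki67 at chr7:135716380-135716629, Top2a at chr11:99024190-99024439 and Ccnb2, cyclin B2, at chr9:70421555-70421804. Capitals mark CCAAT, bound by NF-Y, and TTTGAA, the cell cycle homology region (CHR), each searched on both strands.
Mki67: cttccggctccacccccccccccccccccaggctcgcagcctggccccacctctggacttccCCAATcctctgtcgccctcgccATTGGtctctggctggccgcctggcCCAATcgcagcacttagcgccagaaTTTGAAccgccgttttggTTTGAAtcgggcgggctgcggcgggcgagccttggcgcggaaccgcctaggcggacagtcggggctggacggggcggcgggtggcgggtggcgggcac
Top2a: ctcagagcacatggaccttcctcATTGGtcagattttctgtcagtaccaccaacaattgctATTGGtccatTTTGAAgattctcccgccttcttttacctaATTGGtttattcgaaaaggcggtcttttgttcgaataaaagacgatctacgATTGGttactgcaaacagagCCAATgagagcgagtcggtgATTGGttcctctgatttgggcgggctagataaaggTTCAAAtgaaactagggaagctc
Ccnb2: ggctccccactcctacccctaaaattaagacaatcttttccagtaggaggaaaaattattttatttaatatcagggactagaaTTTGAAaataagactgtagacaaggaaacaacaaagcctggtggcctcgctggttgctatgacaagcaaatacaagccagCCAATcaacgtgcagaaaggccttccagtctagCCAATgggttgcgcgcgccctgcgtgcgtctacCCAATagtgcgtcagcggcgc
Mki67 held 3 CCAAT and 2 CHR matches, Top2a 6 and 2, and Ccnb2 3 and 1. Of the 25 cell cycle genes found among the promoters, 22 held CCAAT (88.0%) and 8 held TTTGAA (32.0%), against 34.3% and 16.2% of 27025 promoters. The 3 shown are among the 8 that held both motifs. Plk1, Ccnb1 and Aurka held 1, 2 and 2 CCAAT matches and 0 TTTGAA matches each. As for the Sprr2 genes, a match describes the letters and is no evidence of binding. Ccnb2 was at 6.96, 6.27 and 4.66 CPM in UTX/Veh and 29.8, 26.7 and 28.2 CPM in IMQ/Troglitazone (log2 2.24 ± 0.18 SE, adjusted p = 7.39e-06).

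Few interferon-stimulated genes passed the test. Of 30 tested, 5 fell (Ifit3b, Stat2, Usp18, Ifih1 and Ddx58), or 16.7%, beside 18.8% of all genes tested, and the median was -0.63. Usp18, which restrains interferon receptor signalling, was at 3.15, 2.80 and 1.97 CPM in UTX/Veh and 1.23, 1.02 and 0.533 CPM in IMQ/Troglitazone (log2 -1.51 ± 0.56 SE, adjusted p = 0.0452). Stat2, part of the interferon-activated transcription complex, was at 30.7, 25.9 and 21 CPM in UTX/Veh and 17.6, 18.1 and 12.8 CPM in IMQ/Troglitazone (log2 -0.68 ± 0.17 SE, adjusted p = 0.00712). Ifit3b and Ddx58, the RIG-I gene, differed by -1.99 ± 0.62 (SE; adjusted p = 0.0219) and -0.66 ± 0.21 (SE; adjusted p = 0.0248). Interferon-stimulated genes called lower numbered 1 without IMQ/Troglitazone replicate 1, 2 without UTX/Veh replicates 1 or 2 and 3 without IMQ/Troglitazone replicates 2 or 3. Of interferon-stimulated genes, the number called lower was 10 within the L001 libraries, and 12 in a fit of the 2 groups alone. In no gene with a stated difference did the groups overlap. Usp18 lost its call without UTX/Veh replicates 1, 2 or 3 or IMQ/Troglitazone replicates 1, 2 or 3 (adjusted p 0.0575 to 0.133). Ifit3b lost its call without UTX/Veh replicate 2 or IMQ/Troglitazone replicates 1 or 2 (adjusted p 0.071 to 0.0918). Ddx58 lost its call without UTX/Veh replicates 1 or 2 or IMQ/Troglitazone replicates 1, 2 or 3 (adjusted p 0.0508 to 0.0784).

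Of the PPAR and RXR receptor genes, Pparg, Ppara and Rxrg were lower than in UTX/Veh skin and Ppard was higher. Pparg was at 17.0, 16.8 and 23.0 CPM in UTX/Veh and 13.2, 13.9 and 12.2 CPM in IMQ/Troglitazone (log2 -0.53 ± 0.17 SE, adjusted p = 0.0226), with 8.87 ± 1.44 CPM in IMQ/Veh. Ppara, the receptor of fatty acid oxidation, was at 6.76, 6.48 and 7.73 CPM in UTX/Veh and 2.62, 3.54 and 3.32 CPM in IMQ/Troglitazone (log2 -1.14 ± 0.27 SE, adjusted p = 0.00508). Ppard, the form most abundant in keratinocytes, was at 44.0, 43.7 and 39.8 CPM in UTX/Veh and 106, 112 and 80.7 CPM in IMQ/Troglitazone (log2 1.23 ± 0.15 SE, adjusted p = 8.01e-05). Against IMQ/Veh, Ppard was called lower, by log2 differences of -0.64 to -0.39 with 1 library left out. That call was lost without IMQ/Veh replicates 1 or 2 or IMQ/Troglitazone replicates 1 or 3 (adjusted p 0.0772 to 0.166). Rxra, the main RXR of epidermis, did not pass the test (319, 324 and 323 CPM in UTX/Veh and 308, 288 and 320.2 CPM in IMQ/Troglitazone; log2 -0.08 ± 0.07 SE, adjusted p = 0.405; 95% confidence interval -0.24 to 0.08). Rxrg differed by -1.10 ± 0.36 (SE; adjusted p = 0.0284). Ranges of the 2 groups overlapped in Rxra and were apart in the other genes with a stated difference. Pparg lost its call without UTX/Veh replicate 3 or IMQ/Troglitazone replicates 1 or 3 (adjusted p 0.0615 to 0.11). Rxrg lost its call without UTX/Veh replicates 1 or 2 or IMQ/Troglitazone replicates 1, 2 or 3 (adjusted p 0.0605 to 0.0837). Rxra passed the test with upper-quartile scaling (adjusted p = 0.0472).

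Taking the receptors and targets together, 13 rose and 10 fell of 54 tested (24.1% and 18.5%, beside 26.5% and 18.8% of all genes tested), with a median of 0.06. Their summed level was 4830 to 5568 CPM in UTX/Veh, 6427 to 8060 CPM in IMQ/Troglitazone and 7619 to 10050 CPM in IMQ/Veh. Fabp5, the epidermal fatty acid binding protein, was at 266, 315 and 281 CPM in UTX/Veh and 2876, 2117 and 1929 CPM in IMQ/Troglitazone (log2 3.01 ± 0.22 SE, adjusted p = 4.02e-06). Against IMQ/Veh, Fabp5 was called lower, by log2 differences of -1.28 to -0.90 with 1 library left out. That call was lost without IMQ/Veh replicate 1 or IMQ/Troglitazone replicate 3 (adjusted p 0.0591 to 0.0625). Gk, glycerol kinase, was at 17.1, 17.6 and 14.7 CPM in UTX/Veh and 119.7, 163 and 79.4 CPM in IMQ/Troglitazone (log2 2.87 ± 0.36 SE, adjusted p = 0.000116). Angptl4, an inhibitor of lipoprotein lipase, was at 3.22, 5.85 and 6.96 CPM in UTX/Veh and 13.8, 19.2 and 19.8 CPM in IMQ/Troglitazone (log2 1.72 ± 0.33 SE, adjusted p = 0.00158). Plin2, the coat protein of lipid droplets in most cells, was at 101, 118 and 113 CPM in UTX/Veh and 241, 232 and 231 CPM in IMQ/Troglitazone (log2 1.08 ± 0.28 SE, adjusted p = 0.00829), with 157 ± 86.4 CPM in IMQ/Veh. Cd36, a fatty acid transporter and a target of PPARγ in macrophages, was at 128, 131 and 154 CPM in UTX/Veh and 198, 169 and 248 CPM in IMQ/Troglitazone and did not pass the test against UTX/Veh (log2 0.57 ± 0.23 SE, adjusted p = 0.0639). It was at 48.1, 94.4 and 101 CPM in the IMQ/Veh libraries, below all 3 IMQ/Troglitazone libraries, by a difference of 1.34 ± 0.24 (SE; adjusted p = 0.0126). Fabp4, the adipocyte and macrophage fatty acid binding protein, and Pdk4, a brake on pyruvate oxidation, did not pass the test against UTX/Veh (log2 0.70 ± 0.48 SE, adjusted p = 0.247, and log2 -0.29 ± 0.67 SE, adjusted p = 0.745). Of the 41 list promoters found, 0 held a pair of AGGTCA copies in the same direction with 1 base between them, the repeat that PPAR and RXR bind, on either strand. Only 11 of 27025 promoters did (0.0407%). At so low a rate, 0 was likely for any list of this size and says nothing about these genes. PPAR list members called lower numbered 4 without IMQ/Troglitazone replicate 1, 5 without UTX/Veh replicates 1 or 3 and 6 without IMQ/Troglitazone replicate 2. Of the genes with a stated difference, the groups overlapped in Fabp4 and Pdk4. Cd36 passed the test with all genes of at least 1 count kept (adjusted p = 0.043), in a fit of the 2 groups alone (adjusted p = 0.00927) and within the L001 libraries (adjusted p = 0.00344). Fabp4 passed the test in a fit of the 2 groups alone (adjusted p = 0.0431) and within the L001 libraries (adjusted p = 0.00295). Pdk4 passed the test without IMQ/Troglitazone replicate 3 (adjusted p = 0.0494). Cd36 lost its call against IMQ/Veh without IMQ/Troglitazone replicate 3 (adjusted p = 0.05).

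Fatty acid synthesis genes divided by enzyme. Of 25 tested, 7 rose and 8 fell (28.0% and 32.0%, beside 26.5% and 18.8% of all genes tested), with a median of -0.01. Scd1, the stearoyl-CoA desaturase, was at 5283, 5481 and 5620 CPM in UTX/Veh and 2613, 3081 and 2589 CPM in IMQ/Troglitazone (log2 -0.98 ± 0.24 SE, adjusted p = 0.00676). Elovl6, which elongates palmitate, was at 729.6, 702 and 992 CPM in UTX/Veh and 304, 369 and 388 CPM in IMQ/Troglitazone (log2 -1.19 ± 0.15 SE, adjusted p = 0.000143). Acacb and Elovl5, the mitochondrial acetyl-CoA carboxylase and a polyunsaturated fatty acid elongase, differed by -1.20 ± 0.24 (SE; adjusted p = 0.00227) and -1.34 ± 0.10 (SE; adjusted p = 5.02e-06). Elovl3, an elongase of sebaceous glands, was at 101, 122 and 86.6 CPM in UTX/Veh and 240.1, 216 and 248 CPM in IMQ/Troglitazone (log2 1.19 ± 0.36 SE, adjusted p = 0.0206), and Acaca, the cytosolic acetyl-CoA carboxylase, differed by 0.60 ± 0.11 (SE; adjusted p = 0.00126). Fasn, the synthase itself, did not pass the test (645, 564 and 642 CPM in UTX/Veh and 925, 848 and 590.4 CPM in IMQ/Troglitazone; log2 0.35 ± 0.19 SE, adjusted p = 0.147). In IMQ/Veh skin Scd1 was at 1780 ± 662 CPM and Elovl6 at 213 ± 32.7 CPM. Fatty acid synthesis genes called higher numbered 4 without IMQ/Troglitazone replicate 1. Fatty acid synthesis genes called lower numbered 5 without UTX/Veh replicates 1, 2 or 3 or IMQ/Troglitazone replicate 3. Ranges of the 2 groups overlapped in Fasn and were apart in the other genes with a stated difference. Elovl3 lost its call without UTX/Veh replicates 1 or 3 or IMQ/Troglitazone replicate 1 (adjusted p 0.0519 to 0.0736).

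**Figure D2:**
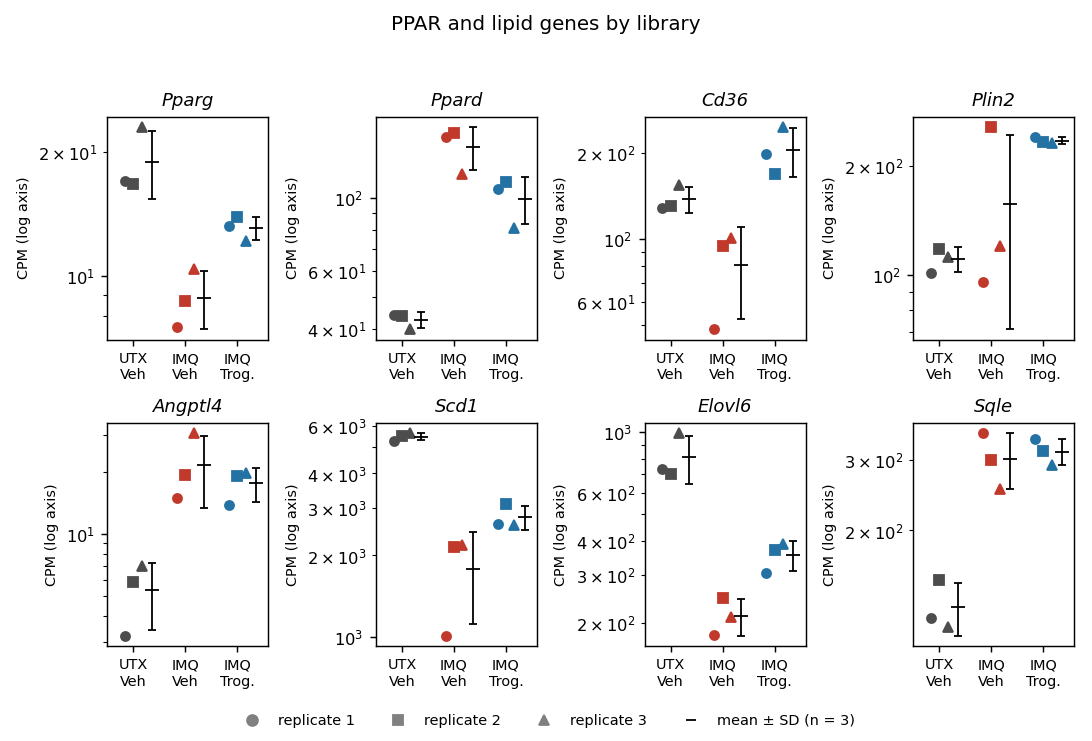
Scaled CPM of 8 PPAR and lipid genes on log axes; symbols are single libraries and the black mark and bar are the mean ± SD of 3 libraries. Pparg, Scd1 and Elovl6 of IMQ/Troglitazone lie below UTX/Veh, Ppard, Plin2, Angptl4 and Sqle lie above it, and Cd36 overlaps neither its UTX/Veh range (128, 131 and 154 CPM) nor its IMQ/Veh range (48.1, 94.4 and 101 CPM).

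Glands, fat and accessory structures gave smaller counts. Of 21 sebaceous gland genes, 6 rose and 6 fell, or 28.6% each way, beside 26.5% and 18.8% of all genes tested (median -0.11). Mc5r, the melanocortin receptor of sebocytes, was at 18.4, 21 and 20.3 CPM in UTX/Veh and 4.36, 3.54 and 5.95 CPM in IMQ/Troglitazone (log2 -2.10 ± 0.25 SE, adjusted p = 7.81e-05), and Dgat2l6, a wax and triglyceride acyltransferase gene, at 15.8, 18.1 and 19.1 CPM in UTX/Veh and 43.1, 48.4 and 62.4 CPM in IMQ/Troglitazone (log2 1.54 ± 0.58 SE, adjusted p = 0.0478). Of 19 adipocyte genes, 1 rose (Cebpa) and 2 fell (Lep and Adrb3), or 5.26% and 10.5%, beside 26.5% and 18.8% of all genes tested (median -0.27). Of 18 LXR receptors and targets, 4 rose (Abcg4, Apod, Smpdl3a and Ch25h) and 4 fell (Mylip, Srebf1, Mlxipl and Nr1d1), or 22.2% and 22.2%, beside 26.5% and 18.8% of all genes tested (median 0.07). Adipocyte genes called lower numbered 0 without UTX/Veh replicate 3 or IMQ/Troglitazone replicate 1 and 1 without UTX/Veh replicate 1 or IMQ/Troglitazone replicates 2 or 3. Of adipocyte genes, the number called higher was 2 in a fit of the 2 groups alone, and 4 within the L001 libraries; the number called lower was 5 in a fit of the 2 groups alone. LXR genes called higher numbered 2 without UTX/Veh replicate 1. LXR genes called lower numbered 2 without UTX/Veh replicates 1 or 3 or IMQ/Troglitazone replicates 2 or 3. Of LXR genes, the number called lower was 1 within the L001 libraries. No overlap between the groups was seen in the genes with a stated difference. Dgat2l6 lost its call without UTX/Veh replicates 1, 2 or 3 or IMQ/Troglitazone replicates 1, 2 or 3 (adjusted p 0.0746 to 0.124). Dgat2l6 also lost its call with upper-quartile scaling, without muscle, erythrocyte and mitochondrial genes and by DESeq2 (adjusted p 0.0506 to 0.0625).

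Of 12 melanocyte and nerve genes, 5 fell (among them Sox10, Mbp, Ncam1 and S100b), or 41.7%, beside 18.8% of all genes tested, and 7 did not pass the test. S100b, of Schwann cells, was at 81.9, 81.8 and 85.4 CPM in UTX/Veh and 27.9, 26.7 and 40.6 CPM in IMQ/Troglitazone (log2 -1.39 ± 0.30 SE, adjusted p = 0.00317). Among 21 fibroblast and collagen genes, 4 fell (Col1a2, Eln, Fap and Sparc), or 19.0%, beside 18.8% of all genes tested; Col1a2, a type I collagen chain, was at 1539, 1060 and 1860 CPM in UTX/Veh and 739, 659 and 535 CPM in IMQ/Troglitazone (log2 -1.21 ± 0.42 SE, adjusted p = 0.0362). Fibroblast genes called lower numbered 2 without UTX/Veh replicates 1 or 3 or IMQ/Troglitazone replicates 1, 2 or 3. Of fibroblast genes, the number called lower was 7 within the L001 libraries, and 12 in a fit of the 2 groups alone. Among 15 mast cell genes, 5 rose (Cpa3, Mcpt4, Tpsb2, Fcer1a and Hdc) and 1 fell (Mrgprb2). The shares were 33.3% and 6.67%, beside 26.5% and 18.8% of all genes tested. Hdc, the histamine-forming decarboxylase, was at 5.82, 3.39 and 4.57 CPM in UTX/Veh and 23.6, 25.3 and 20.6 CPM in IMQ/Troglitazone (log2 2.33 ± 0.20 SE, adjusted p = 9.98e-06). Mast cell genes called higher numbered 1 without UTX/Veh replicates 1 or 2 or IMQ/Troglitazone replicate 1, 2 without IMQ/Troglitazone replicate 3 and 3 without UTX/Veh replicate 3 or IMQ/Troglitazone replicate 2. Mast cell genes called lower numbered 0 without UTX/Veh replicates 1, 2 or 3 or IMQ/Troglitazone replicates 1 or 2 and 2 without IMQ/Troglitazone replicate 3. Of mast cell genes, the number called higher was 2 with upper-quartile scaling; the number called lower was 0 within the L001 libraries. Of muscle genes, Pvalb, the calcium buffer of fast fibres, was at 221, 272 and 222 CPM in UTX/Veh and 48.1, 35.2 and 42.6 CPM in IMQ/Troglitazone (log2 -2.50 ± 0.47 SE, adjusted p = 0.00139); of cartilage genes, Cnmd, chondromodulin, was at 65.0, 48.6 and 68.6 CPM in UTX/Veh and 10.4, 12.0 and 15.7 CPM in IMQ/Troglitazone (log2 -2.26 ± 0.43 SE, adjusted p = 0.00158). Libraries of the 2 groups did not overlap in the genes with a stated difference. Col1a2 lost its call without UTX/Veh replicates 1 or 3 or IMQ/Troglitazone replicates 1, 2 or 3 (adjusted p 0.07 to 0.114).

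Of 3 testable B and plasma cell genes, 2 rose (among them Cd79b); Pax5, Ighg2b and Mzb1 were at 0 in all IMQ/Troglitazone libraries, and 1 gene rose with genes under 1 CPM left out. Of 3 eosinophil and basophil genes, 2 rose (Ear1 and Il3ra); Ear1 had summed counts 38.3 times (95% counting interval 6.50 to 1550) as high, and Epx, Prg2 and Mcpt8 were at 0 in all UTX/Veh libraries. Of 20 endothelial genes, 2 rose (Icam1 and Lyve1) and 1 fell (Prox1), and of 11 hair follicle genes, 2 rose (Krt84 and Foxn1) and 1 fell (Krt32). The median over 6 erythrocyte genes was 0.46. Of 13 mitochondrially encoded genes, 5 fell (mt-Nd2, mt-Nd4, mt-Nd4l, mt-Nd5 and mt-Nd6), or 38.5%, beside 18.8% of all genes tested; their summed level was 34690 to 38120 CPM in UTX/Veh, 25520 to 30990 CPM in IMQ/Troglitazone and 31330 to 35650 CPM in IMQ/Veh, with no overlap between UTX/Veh and IMQ/Troglitazone. Eosinophil and basophil genes called higher numbered 1 without UTX/Veh replicates 1 or 2 or IMQ/Troglitazone replicates 1 or 2. Of eosinophil and basophil genes, the number called higher was 1 with upper-quartile scaling, with genes under 1 CPM left out and in a fit of the 2 groups alone. Endothelial genes called higher numbered 1 without UTX/Veh replicates 1 or 2 or IMQ/Troglitazone replicates 1 or 2 and 4 without IMQ/Troglitazone replicate 3. Endothelial genes called lower numbered 0 without UTX/Veh replicates 1 or 3 or IMQ/Troglitazone replicates 1 or 3. Of endothelial genes, the number called higher was 1 with RLE scaling, with upper-quartile scaling, with genes under 1 CPM left out, without muscle, erythrocyte and mitochondrial genes and by limma-voom, and 4 in a fit of the 2 groups alone and within the L001 libraries; the number called lower was 3 in a fit of the 2 groups alone. Hair follicle genes called higher numbered 1 without UTX/Veh replicates 1, 2 or 3 or IMQ/Troglitazone replicates 1 or 2. Hair follicle genes called lower numbered 0 without IMQ/Troglitazone replicates 1 or 2 and 2 without IMQ/Troglitazone replicate 3. Of hair follicle genes, the number called higher was 1 with upper-quartile scaling; the number called lower was 2 with upper-quartile scaling, in a fit of the 2 groups alone, with the L001/L009 field as a covariate and by limma-voom. Mitochondrially encoded genes called lower numbered 3 without IMQ/Troglitazone replicates 1 or 2 and 8 without IMQ/Troglitazone replicate 3. Of mitochondrially encoded genes, the number called lower was 8 by limma-voom and by DESeq2, and 9 with upper-quartile scaling and in a fit of the 2 groups alone.

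Clock output genes were lower. Of 16 clock genes, 1 rose (6.25%, Clock) and 10 fell (62.5%), beside 26.5% and 18.8% of all genes tested. Their median was -0.91. Dbp, a circadian output factor, was at 118, 93.9 and 136 CPM in UTX/Veh and 32.5, 39.9 and 23.9 CPM in IMQ/Troglitazone (log2 -1.85 ± 0.27 SE, adjusted p = 0.000272). Per3, a period gene, was at 128, 93.6 and 113 CPM in UTX/Veh and 30.4, 37.0 and 39.2 CPM in IMQ/Troglitazone (log2 -1.65 ± 0.17 SE, adjusted p = 2.73e-05). Hlf, a relative of Dbp, was at 200, 198 and 178 CPM in UTX/Veh and 45.0, 55.1 and 71.5 CPM in IMQ/Troglitazone (log2 -1.75 ± 0.23 SE, adjusted p = 0.000173), and Clock itself at 66.7, 82.1 and 69.7 CPM in UTX/Veh and 98.1, 102 and 113 CPM in IMQ/Troglitazone (log2 0.52 ± 0.11 SE, adjusted p = 0.00238). The labels give no time of day of collection, so collection time and treatment cannot be told apart. Clock genes called higher numbered 2 without UTX/Veh replicate 2 or IMQ/Troglitazone replicate 2. Where a difference is stated, the ranges of the 2 groups were apart.

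Among immediate early and heat shock genes, 7 rose and 4 fell (Fosb, Atf3, Hspa1a and Hspb1) of 20 tested. The shares were 35.0% and 20.0%, beside 26.5% and 18.8% of all genes tested. Ier3, an early response gene of stressed cells, was at 19.5, 19.2 and 19.6 CPM in UTX/Veh and 67.4, 82.2 and 48.5 CPM in IMQ/Troglitazone (log2 1.76 ± 0.17 SE, adjusted p = 1.75e-05). Atf3, a stress-induced repressor, was at 21.9, 16.4 and 18.8 CPM in UTX/Veh and 7.83, 6.89 and 6.81 CPM in IMQ/Troglitazone (log2 -1.41 ± 0.36 SE, adjusted p = 0.00884). Early response genes called lower numbered 2 without UTX/Veh replicate 1 or IMQ/Troglitazone replicates 1 or 2. The groups did not overlap in any gene whose difference is given here.

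**Figure D3:**
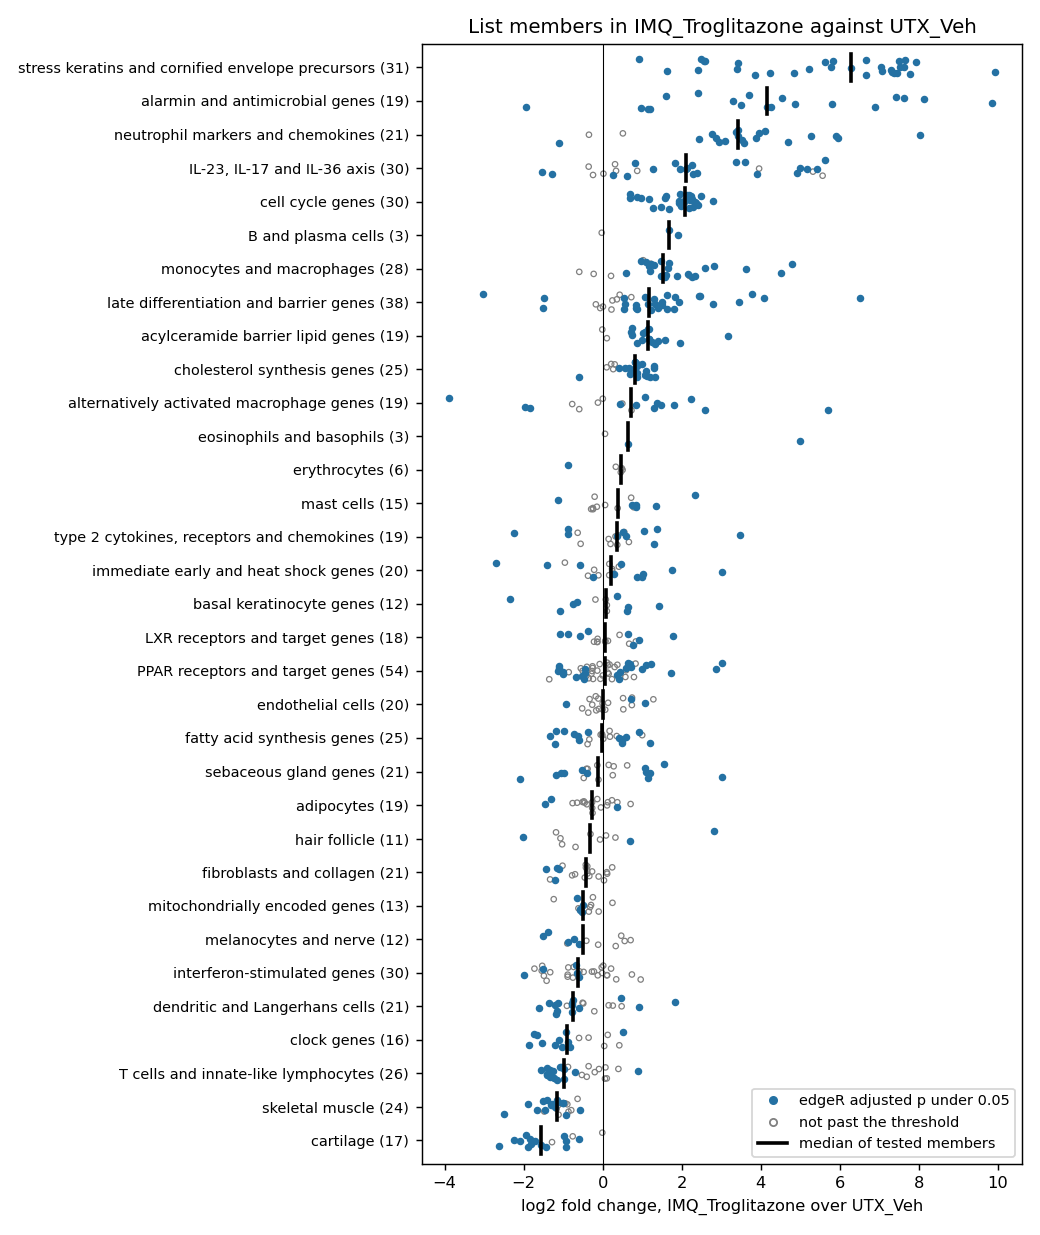
Log2 difference of IMQ/Troglitazone over UTX/Veh for every tested member of the 33 gene lists (numbers of tested members in parentheses); filled points passed the test, open points did not, and black bars are list medians. Stress keratin and envelope genes have the highest median (6.28) and cartilage genes the lowest (-1.55).

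Some genes in IMQ/Troglitazone skin stood apart from both other groups rather than between them. Those named here are the 6 largest in each direction by the naming rule, and their full number was not counted. IMQ/Troglitazone libraries enter both comparisons, so the 2 tests are not independent, and the genes were selected for passing both, so their values are a description. Cxcl13 (chr5:95956951-95961068), the chemokine that draws B cells through CXCR5, was at 0.0786, 0.209 and 0.256 CPM in UTX/Veh, 13, 6.35 and 8.76 in IMQ/Veh and 49.4, 27.9 and 44.0 in IMQ/Troglitazone. It differed from UTX/Veh by 7.78 ± 0.43 (SE; adjusted p = 1.1e-06) and from IMQ/Veh by 2.12 ± 0.28 (SE; adjusted p = 0.00632). Slc5a7 (chr17:54273590-54299034), the high-affinity choline transporter, was at 0.0786, 0.0836 and 0.0427 CPM in UTX/Veh, 0.104, 1.21 and 0.315 in IMQ/Veh and 7.11, 4.51 and 9.40 in IMQ/Troglitazone, 6.56 ± 0.78 (SE; adjusted p = 8.1e-05) above UTX/Veh and 3.60 ± 0.59 (SE; adjusted p = 0.0102) above IMQ/Veh. For Slc16a5, a monocarboxylate transporter family gene, the values were 0.747, 0.920 and 0.513 CPM in UTX/Veh, 0.415, 0.965 and 0.472 in IMQ/Veh and 2.75, 2.81 and 4.02 in IMQ/Troglitazone (log2 2.13 ± 0.33 SE, adjusted p = 0.000413, and log2 2.33 ± 0.34 SE, adjusted p = 0.00682). In all 3 genes the IMQ/Troglitazone libraries were the highest of the 3 groups. Slc5a7 had a log2 difference against IMQ/Veh of 5.05 without IMQ/Veh replicate 2.

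Acot5, a peroxisomal acyl-CoA thioesterase of the kind PPARα induces in liver, was at 1.3, 1.84 and 1.07 CPM in UTX/Veh, 2.49, 7.12 and 2.36 in IMQ/Veh and 12.6, 8.15 and 14.1 in IMQ/Troglitazone (log2 3.04 ± 0.41 SE, adjusted p = 0.00019, and log2 1.52 ± 0.38 SE, adjusted p = 0.0328). Tmem267 and Serpina3m, a membrane protein gene and a serpin, were the others named as higher than both (log2 1.80 ± 0.40 SE, adjusted p = 0.00407, and log2 2.13 ± 0.47 SE, adjusted p = 0.00394 against UTX/Veh). On the low side, Akr1c18, which inactivates progesterone, was at 19.6, 26.7 and 32.4 CPM in UTX/Veh, 67.7, 27.0 and 36.9 in IMQ/Veh and 16.7, 12.1 and 12.3 in IMQ/Troglitazone (log2 -0.94 ± 0.30 SE, adjusted p = 0.0244, and log2 -1.68 ± 0.30 SE, adjusted p = 0.0126). Neurl3, a ubiquitin ligase gene, was at 5.19, 4.97 and 5.55 CPM in UTX/Veh, 8.20, 7.28 and 9.08 in IMQ/Veh and 4.70, 3.30 and 3.04 in IMQ/Troglitazone (log2 -0.51 ± 0.19 SE, adjusted p = 0.0436, and log2 -1.15 ± 0.19 SE, adjusted p = 0.00964). Slc16a9, a carnitine-linked transporter gene, Pts, of tetrahydrobiopterin synthesis, Prdx6, a peroxiredoxin, and the Mir22 host gene Mir22hg fell against UTX/Veh by 1.19, 0.42, 0.24 and 0.40 on the log2 scale. The naming rule asked for no overlap with UTX/Veh, so its absence in these genes is not a result. Akr1c18 lost its call without UTX/Veh replicates 2 or 3 or IMQ/Troglitazone replicates 2 or 3 (adjusted p 0.0553 to 0.0933). Neurl3 lost its call without UTX/Veh replicates 1, 2 or 3 or IMQ/Troglitazone replicates 2 or 3 (adjusted p 0.0699 to 0.141). Prdx6 lost its call without UTX/Veh replicates 1 or 2 or IMQ/Troglitazone replicates 1 or 2 (adjusted p 0.0529 to 0.0723). Neurl3 also lost its call with all genes of at least 1 count kept, with the L001/L009 field as a covariate and within the L001 libraries (adjusted p 0.0519 to 0.269). Pts lost its call within the L001 libraries (adjusted p = 0.0842). Prdx6 also lost its call with all genes of at least 1 count kept (adjusted p = 0.0819) and within the L001 libraries (adjusted p = 0.107). Acot5 lost its call against IMQ/Veh without IMQ/Veh replicate 1 or IMQ/Troglitazone replicates 1 or 3 (adjusted p 0.0762 to 0.126). Akr1c18 lost its call against IMQ/Veh without IMQ/Troglitazone replicate 3 (adjusted p = 0.0547). Tmem267 lost its call against IMQ/Veh without IMQ/Veh replicate 1 or IMQ/Troglitazone replicates 2 or 3 (adjusted p 0.0548 to 0.106). Lyve1 and Prdx6 lost their calls against IMQ/Veh without IMQ/Veh replicate 1 or IMQ/Troglitazone replicate 3 (adjusted p 0.0575 to 0.0779). Serpina3m and Mir22hg lost their calls against IMQ/Veh without IMQ/Veh replicates 1 or 2 or IMQ/Troglitazone replicates 1, 2 or 3 (adjusted p 0.0623 to 0.166). Slc16a9 lost its call against IMQ/Veh without IMQ/Veh replicate 1 or IMQ/Troglitazone replicates 1, 2 or 3 (adjusted p 0.0608 to 0.153). Pts lost its call against IMQ/Veh without IMQ/Veh replicate 1 or IMQ/Troglitazone replicates 1 or 2 (adjusted p 0.107 to 0.165). Acot5 had a log2 difference against IMQ/Veh of 2.27 and Tmem267 of 2.38 without IMQ/Veh replicate 2.

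**Figure D4:**
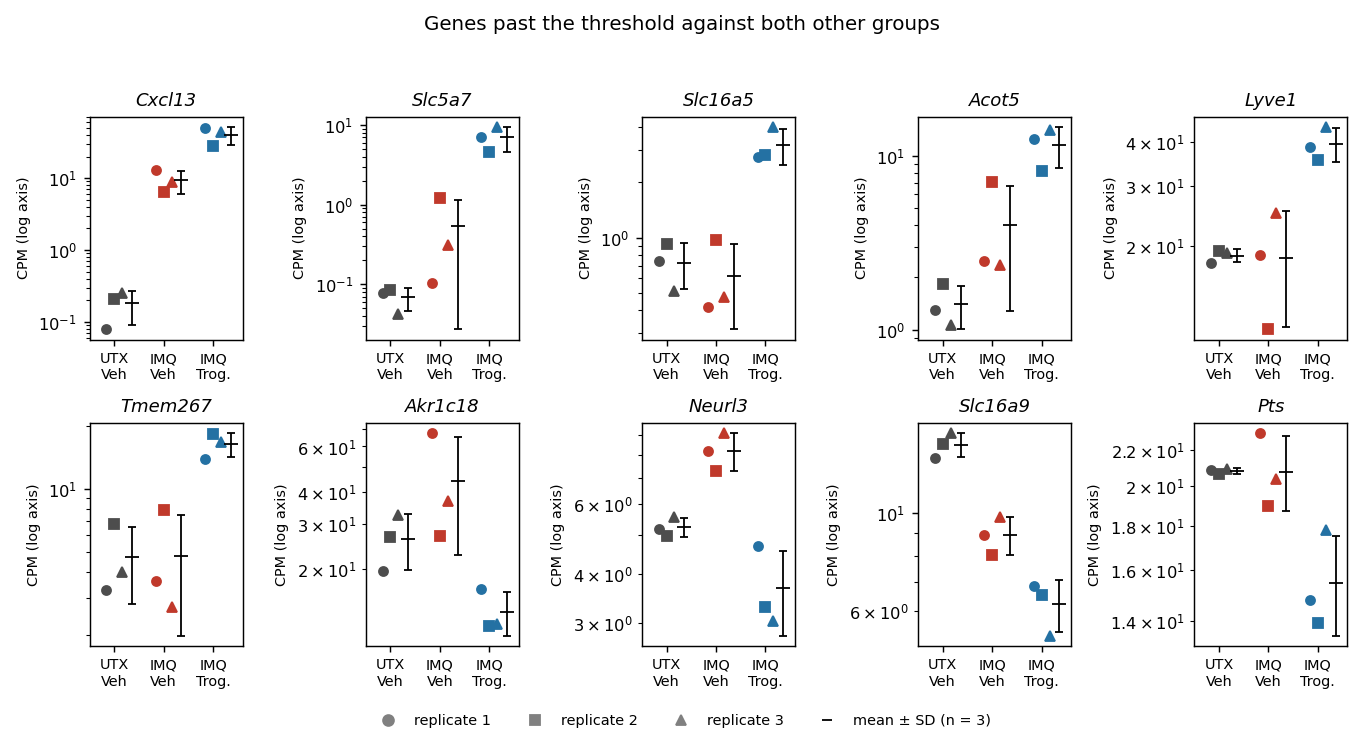
Scaled CPM of 10 genes past the threshold against both UTX/Veh and IMQ/Veh, on log axes; symbols are single libraries and the black mark and bar are the mean ± SD of 3 libraries. The lower bar of Slc5a7 in IMQ/Veh, where the SD was close to or above the mean, is shortened to stay on the axis. Cxcl13, Slc5a7 and Slc16a5 are highest in all 3 IMQ/Troglitazone libraries (Cxcl13 at 49.4, 27.9 and 44.0 CPM), and Akr1c18, Neurl3, Slc16a9 and Pts are lowest there on average.

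Another set was past the threshold against IMQ/Veh and did not pass against UTX/Veh, with an adjusted p of at least 0.5 against UTX/Veh. A p of that size does not show equal levels, so intervals are given. For comparison, IMQ/Veh differed from UTX/Veh in 10597 genes (61.9%), 5646 higher (33%) and 4951 lower (28.9%). Spock2, an extracellular matrix proteoglycan, was at 40.2, 48.3 and 46.5 CPM in UTX/Veh and 36.3, 28.3 and 58.5 CPM in IMQ/Troglitazone and at 5.45, 9.97 and 10.3 CPM in IMQ/Veh (log2 difference from UTX/Veh -0.13, 95% interval -0.82 to 0.55). From IMQ/Veh it differed by 2.25 ± 0.34 (SE; adjusted p = 0.0079). Zbtb16, which encodes the PLZF factor of innate-like lymphocytes, was at 38.4, 32.9 and 50.5 CPM in UTX/Veh and 17.0, 20.9 and 57.2 CPM in IMQ/Troglitazone and at 3.94, 5.55 and 8.40 CPM in IMQ/Veh (interval -1.28 to 0.57). Fmo2, a flavin monooxygenase, was at 55.5, 72.1 and 51.0 CPM in UTX/Veh and 46.4, 38.3 and 109 CPM in IMQ/Troglitazone and at 5.71, 11.8 and 9.71 CPM in IMQ/Veh (interval -0.68 to 0.92). Ibsp, Doc2b and Fam107a were the others higher than IMQ/Veh by the naming rule, and Ccr2, Hunk, Slco4a1, Adgrg5, Bvht and Cd40 were lower than IMQ/Veh. Cd40, the costimulatory receptor of antigen-presenting cells, was at 1.3, 0.878 and 1.37 CPM in UTX/Veh and 1.61, 1.16 and 1.23 CPM in IMQ/Troglitazone and at 2.44, 2.13 and 2.62 CPM in IMQ/Veh (interval -0.34 to 0.70). In these 4 genes with given levels, IMQ/Troglitazone overlapped UTX/Veh. It did not overlap IMQ/Veh, which the naming rule required. Replicate 3 was the highest IMQ/Troglitazone library in Spock2, Zbtb16 and Fmo2; without it Zbtb16 had a log2 difference from UTX/Veh of -1.09. Zbtb16 passed the test without IMQ/Troglitazone replicate 3 (adjusted p = 0.0242). Zbtb16 lost its call against IMQ/Veh without IMQ/Veh replicate 1 (adjusted p = 0.0646). Ibsp, Hunk and Slco4a1 lost their calls against IMQ/Veh without IMQ/Veh replicate 1 or IMQ/Troglitazone replicate 3 (adjusted p 0.0503 to 0.0977). Doc2b and Fam107a lost their calls against IMQ/Veh without IMQ/Veh replicates 1 or 2 or IMQ/Troglitazone replicate 3 (adjusted p 0.0763 to 0.192). Ccr2 lost its call against IMQ/Veh without IMQ/Troglitazone replicate 3 (adjusted p = 0.0547). Adgrg5 lost its call against IMQ/Veh without IMQ/Veh replicates 1 or 2 or IMQ/Troglitazone replicates 1, 2 or 3 (adjusted p 0.0536 to 0.172). Bvht lost its call against IMQ/Veh without IMQ/Veh replicate 1 or IMQ/Troglitazone replicates 1, 2 or 3 (adjusted p 0.0625 to 0.081). Cd40 lost its call against IMQ/Veh without IMQ/Veh replicates 1, 2 or 3 or IMQ/Troglitazone replicates 1, 2 or 3 (adjusted p 0.0517 to 0.159). Zbtb16 had a log2 difference against IMQ/Veh of 1.67, Fmo2 of 2.22, Ibsp of 2.58, Doc2b of 1.52 and Fam107a of 1.02 without IMQ/Troglitazone replicate 3.

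Set beside IMQ/Veh, 1600 genes of 17130 differed in IMQ/Troglitazone (9.34%), 803 higher (4.69%) and 797 lower (4.65%), with a median of -0.02 over all genes. Leaving out 1 library moved this count, which was 162, 1117 and 4460 without IMQ/Veh replicates 1, 2 and 3, and 750, 1082 and 252 without IMQ/Troglitazone replicates 1, 2 and 3. In an edgeR fit of these 2 groups alone, 0 genes passed, with 3279 at an unadjusted p under 0.05. Stress keratin and envelope members lower than in IMQ/Veh numbered 18 (58.1%), from 1 without IMQ/Veh replicate 1 to 25 without IMQ/Veh replicate 3. Late differentiation members higher than in IMQ/Veh numbered 22 (57.9%), from 6 without IMQ/Veh replicate 1 to 26 without IMQ/Veh replicate 3, and 1 was lower (2.63%). Cell cycle members lower numbered 10, from 1 without IMQ/Veh replicate 1 to 22 without IMQ/Veh replicate 3, and PPAR receptors and targets higher numbered 7, from 2 without IMQ/Veh replicate 1 to 23 without IMQ/Veh replicate 3. Against UTX/Veh, as given above, the stress keratin, late differentiation and cell cycle lists were mostly higher. Both comparisons hold the IMQ/Troglitazone libraries.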

How the data were processed

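Ear skin messenger RNA was sequenced in 12 libraries, 3 in each of 4 groups, and 6 libraries were compared here. The authors deposited RSEM tables with an expected count and a TPM value per gene; the labels' protocols name a stranded kit. STAR 2.7.3a, RSEM 1.3.3, Trim Galore, FastQC and the build GRCm38 (mm10) come from the submitters' processing notes. The sources used here give neither the strand setting nor the annotation release. Of 55416 identifiers, 52135 matched GENCODE M21, which gave symbols and positions.

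Expected counts, of which 8.66 to 10% per library were not whole, were rounded. edgeR 4.0.16 (R 4.3.3) tested 17130 genes kept by filterByExpr, with TMM scaling and Benjamini-Hochberg adjustment at 0.05. Quasi-likelihood tests used a fit of all 12 libraries (8 residual degrees of freedom). The 3 IMQ/GW3965 libraries thus enter the spread behind every p-value of that fit. In IMQ/GW3965 replicate 3, 1 feature held 11.6% of counts. Its chi-square per degree of freedom against the others of its group was 199 and 174. The fold changes carry a prior count of 0.125. Library totals ran from 18242074 to 25641602. Floors (3 counts over a group) and counting intervals (95%, exact) cover counting error only. TPM was not used for tests. The testing steps were tested on simulated data.

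Named genes were the 10 largest rises and 10 largest falls among genes whose mean reached 1 CPM and whose groups did not overlap. Up to 4 called members of each of 33 lists (711 symbols, 661 tested) and 25 fixed genes were added. The 6 largest in each direction that passed against both groups, or against IMQ/Veh only, were named too. These also had to show no overlap, with UTX/Veh in the first case and with IMQ/Veh in the second. The 815 predicted or unnamed models past the threshold were not named. Some list members are not reported here by name. Members given beyond this rule, such as Lcn2, Mki67, Krt10, Krt77 and Cd207, were chosen after their values were seen. The members and lists were chosen with earlier results of these data known. The replicate numbers share no stated animal or batch and were not used as pairs. The 22 alternatives were run with DESeq2 1.42.0, limma 3.58.1 and edgeR.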

Additional observations from a re-analysis of the deposited data

How the results depend on the processing

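Of 173 named genes, 156 passed the threshold against UTX/Veh and 69 kept their direction and side of it under every setting run. Over all alternatives 2939 gene values kept both, 283 fell short of the threshold, 14 newly passed it and 29 changed sign; beyond fewer libraries, the cause was not tested.

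IMQ/Troglitazone against UTX/Veh gave 667 genes (535 higher, 132 lower) at a minimum fold of 2, and 2120 lower with L001 libraries only. Leaving out 1 replicate gave 5808 to 7537 in all, 3662 to 4473 higher and 2049 to 3064 lower. With the replicate block it gave 7911 (4586 and 3325); same-numbered libraries correlated by 0.055, 0.0221 and 0.041, and only number 1 matched its own number best, so no pairing was assumed.

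IMQ/Troglitazone against IMQ/Veh gave 0 genes at a minimum fold of 2 (347 at an unadjusted p under 0.05) and 0 in a fit of those groups alone (3279 unadjusted), by edgeR. With the lane field as a covariate it gave 1009 (503 higher, 506 lower), with the block added 991 (430 lower), with the block alone 1715, with L001 only 2814 (1827 higher), and with DESeq2 2557 (1351 and 1206). Leaving out 1 replicate gave 162 to 4460 in all, 100 to 2499 higher and 62 to 1961 lower. IMQ/Veh against UTX/Veh gave 2014 (1126 and 888) at a minimum fold of 2, in place of 10597.

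The sign changes were in 11 genes that did not pass against UTX/Veh. With L001 only, the log2 difference was 0.55 for Ibsp, 0.07 for Zbtb16, 0.11 for Spock2, -0.062 for Slco4a1, -0.019 for Adgrg5 and 0.37 for Pdk4. For Doc2b it was -0.063 with upper-quartile scaling, -0.12 with the replicate block, -0.021 with the L001/L009 covariate, -0.17 with block and covariate and -0.33 by limma-voom. For Fam107a it was -0.071 with the block, -0.096 with block and L001/L009 covariate and -0.22 by limma-voom, which gave -0.017 for Fmo2. Without 1 replicate each, values ran from -1.38 to 0.29 for Ibsp, -0.49 to 0.39 for Fmo2, -1.13 to 0.42 for Doc2b, -0.47 to 0.080 for Spock2, -0.98 to 0.495 for Fam107a, -0.023 to 0.55 for Ccr2, -0.19 to 0.064 for Hunk, -0.041 to 0.34 for Adgrg5 and -1.57 to 0.11 for Pdk4. For interleukin and chemokine genes below 1 CPM, depth limits precision.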
